A study of Homo sapiens with 47 samples.

Results

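The caudal-type homeobox genes *CDX1* (ENSG00000113722), *CDX2* (ENSG00000165556) and *CDX4* (ENSG00000131264) were followed through 47 bulk RNA-seq libraries of differentiating human embryonic stem cells. They were taken as the human genes of the CDX family, found by identifier in every gene table, and are 3 of 58051 genes listed there. All libraries came from the established embryonic stem cell line WA09, also called H9. The undifferentiated cells (t0) were kept in mTeSR1 medium, and every later group was grown in a serum-free N2B27 medium without vitamin A that contained Y-27632 (a kinase inhibitor used to help dissociated stem cells survive), AGN193109 (an inverse agonist of retinoic acid receptors), FGF2 and the WNT agonist CHIR-99021. The t0 cells therefore differ from all other groups in both medium and added factors, and every group after t0 carries the same 4 agents. The 36h cells are labelled as resembling neuromesodermal progenitors, the bipotent cells of the tailbud. From P1 to P10 the same cultures were passaged in that medium and are labelled neural progenitors. At P5 and P8, cells that detached early or late from the dish were collected apart as a mesenchymal fraction (MES, labelled as enriched in neural crest) and an epithelial fraction (EPI, labelled as enriched in neural progenitors), so a fraction is an enrichment and not a pure cell type. There were 3 differentiations, numbered 1 to 3 as in the labels, with 1 library for each group, except that P9 had libraries of differentiations 1 and 2 only. This gives 35 libraries of whole cultures and 12 of fractions, and the cultures of a differentiation are successive passages of the same cells.

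CDX proteins are homeodomain transcription factors of the caudal family. In the vertebrate embryo they are expressed in the posterior growth zone downstream of WNT and FGF signals, where they activate *HOX* genes of the trunk and help to keep the progenitors that lengthen the body axis, and embryos without them fail to form the posterior body. *CDX1* and *CDX2* are also known from the intestinal epithelium, and *CDX2* from the trophectoderm, the outer layer of the early embryo.

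The genes lie on different chromosomes. In the GENCODE 29 annotation of GRCh38, *CDX1* spans chr5:150166795-150184558 on the plus strand, *CDX2* chr13:27962137-27971139 on the minus strand and *CDX4* chrX:73447254-73455245 on the plus strand, and no other annotated gene overlaps any of them. They are related enough in sequence that the sharing of reads has to be looked at, so a stretch of 180 bases of each coding sequence is given, 5′ to 3′, from the region that encodes the DNA-binding homeodomain. Capitals mark the 118 bases that are the same in all 3 genes. It is bases 481 to 660 of the 798 coding bases of *CDX1*, bases 577 to 756 of 942 in *CDX2* and bases 538 to 717 of 855 in *CDX4*.
CDX1: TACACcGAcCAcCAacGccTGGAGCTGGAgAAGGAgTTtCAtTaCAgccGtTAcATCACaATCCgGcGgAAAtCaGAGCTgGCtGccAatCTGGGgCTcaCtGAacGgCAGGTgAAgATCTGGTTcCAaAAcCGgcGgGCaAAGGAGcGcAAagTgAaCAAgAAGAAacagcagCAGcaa
CDX2: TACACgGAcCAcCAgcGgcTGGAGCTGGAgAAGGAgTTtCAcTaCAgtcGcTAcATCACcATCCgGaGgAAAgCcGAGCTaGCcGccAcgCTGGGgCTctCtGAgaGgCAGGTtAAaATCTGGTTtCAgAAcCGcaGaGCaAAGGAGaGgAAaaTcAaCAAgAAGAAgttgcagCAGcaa
CDX4: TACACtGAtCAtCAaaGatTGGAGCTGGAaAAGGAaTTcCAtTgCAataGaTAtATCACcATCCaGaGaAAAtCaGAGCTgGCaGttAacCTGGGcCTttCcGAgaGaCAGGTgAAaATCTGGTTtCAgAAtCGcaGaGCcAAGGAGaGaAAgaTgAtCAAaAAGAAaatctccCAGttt
Over this stretch *CDX1* and *CDX2* were 82.8% identical, *CDX2* and *CDX4* 73.9% and *CDX1* and *CDX4* 70.6%. The longest run of bases shared without a mismatch by their transcripts was 23 bases for *CDX1* and *CDX2*, 17 for *CDX2* and *CDX4* and 14 for *CDX1* and *CDX4*, which is shorter than the 75-base reads. All 141 estimated counts of the 3 genes were whole numbers, in tables that give counts to the second decimal, while 9.33% of the values of all genes were not whole.

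The libraries held between 13029491 and 64082859 estimated counts over all genes, with a median of 47292229. Levels are given in TPM, which divides counts by transcript length and scales every library to the same total, so that genes can be compared with each other, and tests were run on the estimated counts with edgeR. A gene passed a test when its adjusted p was below 0.01, its change at least 2-fold and its mean over the compared libraries at least 100 normalized counts. Some libraries of differentiation 1 stood apart from the other libraries with the same label. At P1, its 5 markers of pluripotent cells summed to 1223 TPM against 103 and 99.5 TPM in the other differentiations. At P10, its sum of 15 trunk *HOX* genes was 1655 TPM against 166 and 150 TPM, although its own P9 library had 352 TPM. Comparisons of P9 and P10 with P8, which rest in part on the P10 library of differentiation 1, are therefore given with and without it. Because these are bulk samples, fewer expressing cells and less RNA per cell cannot be told apart in any of the values below.

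*CDX1* and *CDX2* went from nearly undetected to abundant within the first 36h, while *CDX4* stood at no more than 1.18 TPM at 36h. *CDX1* had 0, 2 and 5 counts at t0 in differentiations 1 to 3 and 1366, 4536 and 9973 counts at 36h, which correspond to 50.2, 138 and 223 TPM. Every 36h library thus lay far above every t0 library. Against its own t0 library, the 36h level in TPM was 1859-fold higher in differentiation 3, and in differentiation 1, which had no *CDX1* count at t0, the normalized count was at least 539-fold higher when 3 counts are taken as the limit that a count of 0 allows. *CDX2* had 0.39, 0.15 and 0.06 TPM at t0, from 16, 13 and 4 counts, and 21.8, 121 and 181 TPM at 36h. The rise in TPM was 55.8-, 809- and 3009-fold in differentiations 1 to 3, and in normalized counts 58.8-, 429- and 2638-fold. The scales differ because few counts at t0 were divided by a transcript length of their own, which in differentiation 2 was 3400 bases against 1798 bases at 36h. For both genes differentiation 1 was lowest and differentiation 3 highest at 36h.

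In edgeR's quasi-likelihood test, adjusted by Benjamini-Hochberg over all 21750 genes tested, *CDX1* rose by 11.31 ± 1.29 (SE) on the log2 scale (adjusted p = 2.44e-06) and *CDX2* by 9.57 ± 1.42 (adjusted p = 8.08e-05). Of all genes tested, 1.33% passed as higher at 36h, and 2 of the 3 *CDX* genes were among them. The rise of *CDX2* did not pass when differentiation 2 or 3 was left out (adjusted p = 0.0295 and 0.0206), with log2 changes of 9.99 and 8.15, or with only the compared groups in the fit (8.62, adjusted p = 0.0117). *CDX4*, whose mouse counterpart is active in the primitive streak and tailbud, had 0.72, 0.44 and 0.58 TPM at t0 and 0.52, 0.23 and 1.18 TPM at 36h. Its groups overlapped, with a log2 difference of 0.27 (adjusted p = 0.916). Markers of pluripotent cells were still present at 36h, where the same 5 genes summed to 2365, 1619 and 838 TPM against 3032 to 3405 TPM at t0. The order of the 3 differentiations in this sum was the reverse of their order in *CDX1* and *CDX2*, and the part of remaining undifferentiated cells in those levels was not tested.

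**Figure D1:**
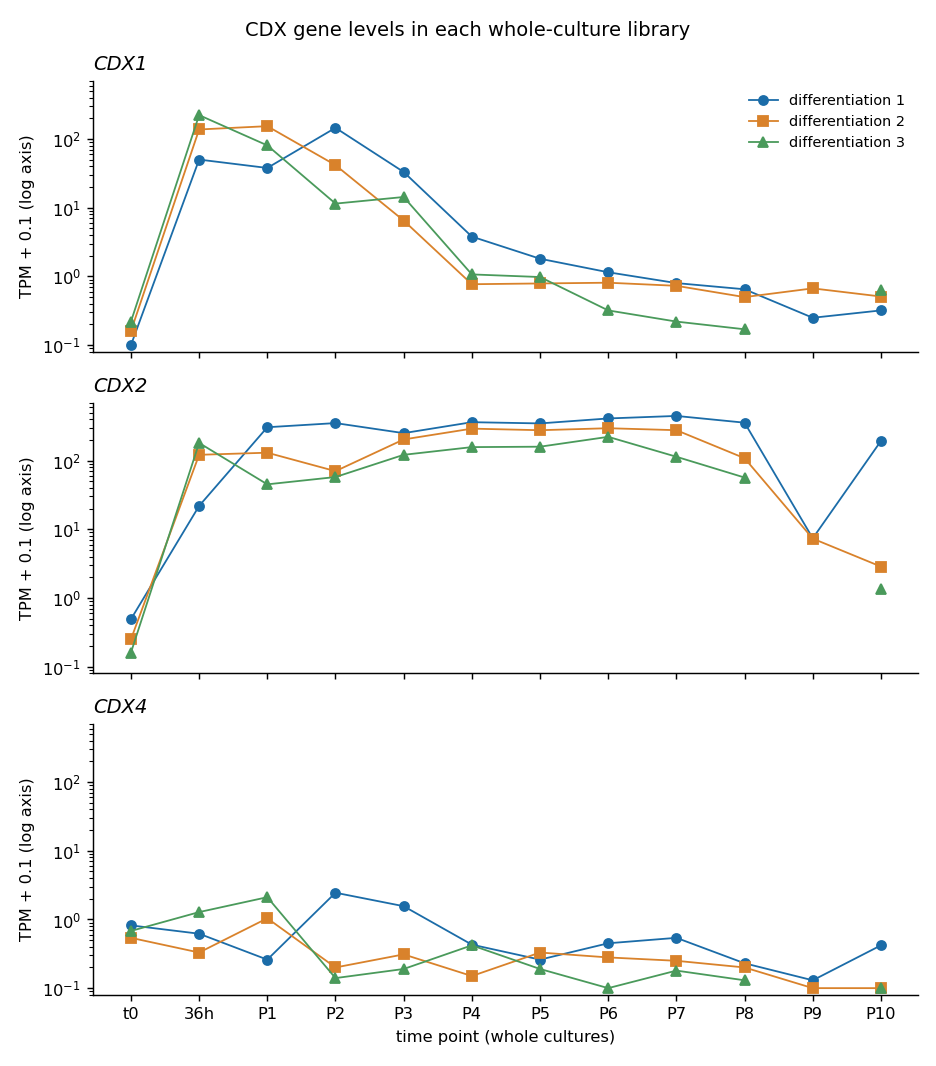
Level of *CDX1*, *CDX2* and *CDX4* in whole cultures, in TPM + 0.1 on a log axis, by time point; each line is 1 differentiation and breaks where P9 of differentiation 3 was not analysed. *CDX1* and *CDX2* rise at 36h, *CDX1* is at or below 3.70 TPM from P4, *CDX2* stays above 44 TPM from P1 to P8, and *CDX4* stays below 3 TPM throughout.

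*CDX1* was an early and short-lived member of the family. Its peak fell at P2 in differentiation 1 (146 TPM), at P1 in differentiation 2 (154 TPM) and at 36h in differentiation 3 (223 TPM), so the time of the peak was not the same in any pair of differentiations. At P1 it stood at 37.9, 154 and 80.8 TPM, at P2 at 146, 41.7 and 11.4 TPM, and at P3 at 33.1, 6.41 and 14.2 TPM. By P4 it had dropped to 3.70, 0.67 and 0.97 TPM. These P4 values lay 8.94-, 9.57- and 14.7-fold below those at P3, and the P3 and P4 libraries did not overlap. From P5 to P10 the level was between 0.07 and 1.71 TPM in every whole culture, against a t0 mean of 0.06 ± 0.06 TPM (SD, n = 3).

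*CDX1* passed as lower between 36h and P5. Its level at P5 in TPM was 29.4-, 199.8- and 254-fold below that at 36h in differentiations 1 to 3, and the fitted log2 change was -7.41 ± 1.03 (SE, adjusted p = 1e-05). Of all genes tested, 4.54% passed as lower at P5, and *CDX1* was among them while *CDX2* was not. *CDX4* (log2 change -2.25, adjusted p = 0.145) had a mean of 14.8 normalized counts, below the level needed to pass. Against t0, *CDX1* passed at 36h, P1, P2 and P3, which is 4 of 11 time points, and the share of all genes that passed as higher at those times was 1.33%, 3.42%, 5.89% and 5.8%. At P4 the mean was 30.8 normalized counts, below the level needed to pass (log2 change from t0 4.54, adjusted p = 0.00424), and at P5 the log2 change from t0 was 3.90 (adjusted p = 0.0128). The step from P3 to P4 alone did not pass (log2 change -3.40 ± 0.87, adjusted p = 0.425), and no gene at all did in that step.

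Ordered by mean level in the whole cultures, *CDX1* was highest at 36h (137 ± 86.5 TPM, SD, n = 3), followed by P1 (90.9 ± 58.7 TPM), P2 (66.3 ± 70.5 TPM) and P3 (17.9 ± 13.7 TPM). P4 (1.78 ± 1.67 TPM) and P5 (1.09 ± 0.54 TPM) came next. The ranges of neighbouring time points overlapped in this order except between P3 and P4. These ranges do not pair the libraries of a differentiation, so an overlap does not show that neighbours were alike within a differentiation.

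*CDX2* stayed high for most of the culture. At P1 the libraries held 306, 130 and 45.0 TPM, at P2 351, 70.1 and 57.5 TPM, and at P3 251, 203 and 121 TPM. At P4 they held 362, 292 and 157 TPM, at P5 348, 277 and 159 TPM, and at P6 411, 296 and 222 TPM. From P1 to P6 every library was thus far above t0, and among these passages the SD between differentiations was largest at P2 (166 TPM). The highest value in the series was 447 TPM, at P7 in differentiation 1, where differentiations 2 and 3 had 277 and 114 TPM. At P8 the values were 356, 108 and 56.5 TPM, so differentiation 1 lay within its earlier range while the other 2 differentiations were lower than at any passage from P3 to P7. In its best library *CDX2* ranked 319th to 391st among all 58051 genes by TPM at each passage from P4 to P7, which places it among the abundant transcripts of these cells.

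Against t0, *CDX2* passed as higher at all 11 later time points, and at 10, 8 and 9 of them without differentiations 1, 2 and 3 and at 9 with only the compared groups in the fit. The share of all genes that did so was 6.22% at P4, 6.44% at P5, 6.68% at P6, 7.26% at P7, 7.66% at P8, 10.3% at P9 and 9.5% at P10, and for the earlier times it is given with *CDX1*. Between 36h and P5 its log2 change was 0.62 (adjusted p = 0.649) and between P5 and P8 -0.97 (adjusted p = 0.722), so neither comparison passed, and from P5 to P8 only 2 genes passed in all (0.0092%). By mean level, P6 was highest (309 ± 95.1 TPM, SD, n = 3), followed by P7 (279 ± 167 TPM), P4 (270 ± 104 TPM) and P5 (261 ± 95.2 TPM). P3 (192 ± 65.6 TPM), P8 (174 ± 160 TPM), P1 (160 ± 133 TPM), P2 (160 ± 166 TPM) and 36h (108 ± 80.2 TPM) came after these. The ranges of neighbours in this order overlapped down to P9, and P9 and t0 alone were apart. These ranges do not pair the libraries of a differentiation. Within differentiations 1 to 3, P5 was above its neighbour P3 each time (348 against 251, 277 against 203 and 159 against 121 TPM).

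The 3 differentiations kept a fixed order in *CDX2*. In each of the 8 passages from P1 to P8, and in each of the 4 fraction groups, differentiation 1 was highest, differentiation 2 intermediate and differentiation 3 lowest, both in TPM and in normalized counts. At 36h the order was the reverse. The differentiations are successive samples of the same cultures, so these 12 orders are not independent of each other. The block takes a fixed difference between differentiations over all time points, which the reversed order at 36h does not meet. Fitted changes of *CDX2* against 36h therefore depend on the use of the block.

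*CDX4* remained at the edge of detection. It was below 3 TPM in all 47 libraries, below 1 TPM in 43 of them, at 0 counts in 4 and at 3 counts or fewer in 17. The highest values were 2.35 TPM (117 counts) at P2 of differentiation 1 and 2.01 TPM (97 counts) at P1 of differentiation 3. Next came 1.46 TPM at P3 of differentiation 1 and 1.18 TPM (54 counts) at 36h of differentiation 3. These libraries are from the times at which *CDX1* was also expressed, but the other libraries of the same groups were lower, with 0.16 and 0.94 TPM at P1 and 0.10 and 0.04 TPM at P2. *CDX4* could not pass against t0 at any of the 11 time points. Its mean in these comparisons was between 12.6 and 30.9 normalized counts, below the 100 needed. Its log2 change in edgeR was above 0 at 36h and P1 and below 0 at every later time point. It was -2.97 at P8 (adjusted p = 0.045), -5.48 at P9 (adjusted p = 0.0161) and -3.05 at P10 (adjusted p = 0.0357), from few counts.

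Between 36h and P4 the family passed from a mixture of *CDX1* and *CDX2* to *CDX2* nearly alone. Of the summed TPM of the 3 genes, *CDX1* made up 69.3%, 53.2% and 55.1% at 36h in differentiations 1 to 3, and it exceeded *CDX2* in all 3 libraries. Its share at P1 was 11%, 54.0% and 63.2%, with differentiation 1 apart from the other 2. At P3 it was 11.6%, 3.06% and 10.5%, low in all 3 differentiations. The share of *CDX2* rose in parallel, from 40.5% ± 9.1 at 36h (SD, n = 3) to 56.6% ± 28.5 at P1, 72.1% ± 10.5 at P2, 91.4% ± 4.8 at P3 and 99.3% ± 0.43 at P4. *CDX2* had the highest TPM of the 3 genes in 39 of the 47 libraries. *CDX4* was the highest of the 3 at t0 alone, where all levels were below 1 TPM and its share was 69.6% ± 6.0.

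**Figure D2:**
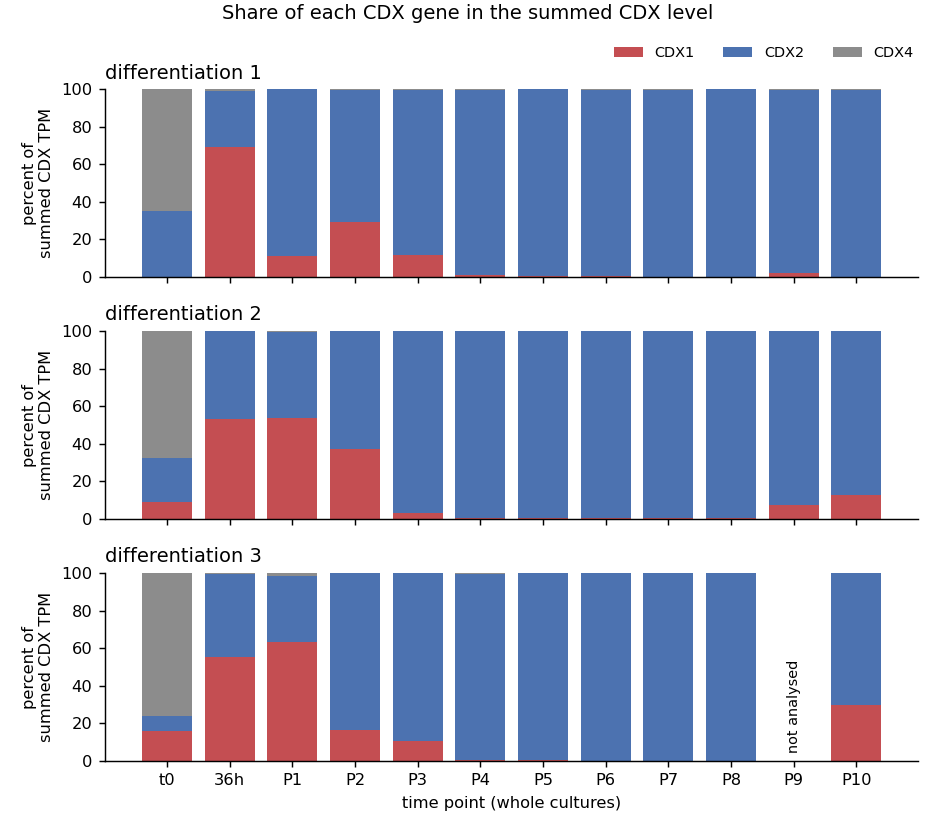
Share of each CDX gene in the summed TPM of the 3 genes, in percent, for each library of whole cultures; each panel is 1 differentiation and each bar 1 time point. *CDX1* holds 53.2% to 69.3% at 36h, and from P4 to P8 *CDX2* holds nearly the whole sum, with a mean of 99.3% at P4.

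These shares depend on the transcript length by which counts are divided. The longest coding transcript of *CDX2* has 4053 bases, whereas the lengths used for its TPM were between 1701 and 1982 bases in the 42 libraries with at least 100 counts, since a shorter annotated transcript was given part of the reads. With the length of the longest coding transcript for each gene, the *CDX2* share became 27.5% at 36h, 45.4% at P1, 59.0% at P2, 85.9% at P3 and 99.1% at P5. At P1 it thus went from the larger to the smaller part of the sum. The move from *CDX1* to *CDX2* kept its direction.

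In the last passages *CDX2* was far lower in 4 of the 5 libraries. At P9 it stood at 7.29 and 7.21 TPM in differentiations 1 and 2, which was 48.9- and 15.0-fold below their P8 libraries and still above every t0 library. At P10 the 3 differentiations held 193, 2.76 and 1.24 TPM. Differentiations 2 and 3 were thus 39.2- and 45.6-fold below P8, and differentiation 1 was 1.84-fold below P8 and far above its own P9 library. Because the culture is a succession of passages, the order of 356, 7.29 and 193 TPM in differentiation 1 goes against the course seen in differentiation 2, and its P9 and P10 libraries differed widely. In that same P10 library, the level of several other sets of genes was also close to P8.

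With all libraries, P9 and P10 together against P8 gave a log2 change of -3.31 ± 0.85 for *CDX2* (SE, adjusted p = 0.0168), which did not pass, while 0.474% of all genes passed as lower. It passed with DESeq2 (-3.32, adjusted p = 0.00169) and with all 47 libraries in the edgeR fit (-3.33, adjusted p = 0.00474). Without the P10 library of differentiation 1 the change was -5.31 ± 0.65 and passed (adjusted p = 4.25e-06). P9 alone against P8 gave -4.56 ± 1.28 (adjusted p = 0.0258), with 2 libraries at P9, and did not pass, while 0.331% of all genes passed as lower. It passed with DESeq2 (-4.57, adjusted p = 0.000492) and with all 47 libraries in the edgeR fit (-4.62, adjusted p = 0.00823). It did not pass in edgeR without the block (adjusted p = 0.0844) or with only the compared groups in the fit (adjusted p = 0.0733). With a differentiation left out the adjusted p in edgeR ranged from 0.00129 to 0.215, but leaving out differentiation 1 or 2 leaves a lone P9 library that is assumed to vary like the other groups. *CDX1* was already low at P8 (0.55, 0.40 and 0.07 TPM). For P9 and P10 against P8 it changed by 0.12 on the log2 scale (adjusted p = 0.965), or by 0.41 without the P10 library of differentiation 1 (adjusted p = 0.826). With all libraries its mean was 11.7 normalized counts, below the level needed to pass.

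Sums of other genes also differed between these libraries. The sum of 15 trunk *HOX* genes was 1859, 951 and 841 TPM at P8, 352 and 285 TPM at P9, and 1655, 166 and 150 TPM at P10, again with differentiation 1 high at P10. The sum of the *HOX* genes of group 13, which pattern the most posterior part of the axis, was 112, 273 and 260 TPM at P8, 689 and 340 TPM at P9 and 287, 608 and 364 TPM at P10. This sum was higher than at P8 in every P9 and P10 library of the same differentiation. By gene, 3 of the 4 had a fitted change from P8 above 0 and 1 below, with a median of 1.40, and none passed. The 6 markers of the epithelial progenitors stood at 657, 386 and 262 TPM at P8 and at 112 and 119 TPM at P9, and 10 markers of neural crest and mesenchyme at 226, 497 and 883 TPM at P8 and at 1201 and 1204 TPM at P9. At P10 the epithelial sum was 546, 64.1 and 124 TPM and the mesenchymal sum 332, 986 and 1110 TPM. The epithelial sum was thus low where *CDX2* was low, and the mesenchymal sum was high there. By gene, 5 of the 10 mesenchymal markers had a fitted change from P8 above 0 and 5 below, with a median of 0.015 against -0.01 over all genes and none passing (0.772% of all genes passed as higher and 0.474% as lower), so the higher sum came from some of its members. Without the P10 library of differentiation 1, *SNAI1* (3.68), *TWIST1* (3.11) and *TFAP2A* (4.23) passed as higher and *SOX9* (-2.78) and *FOXD3* (-3.56) as lower among them, and *SOX2* (-6.30) and *CDH2* (-1.20) passed as lower among the 6 epithelial markers, where 2.25% of all genes passed as higher and 2.39% as lower. The part of culture composition in the lower *CDX2* was not tested.

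**Figure D3:**
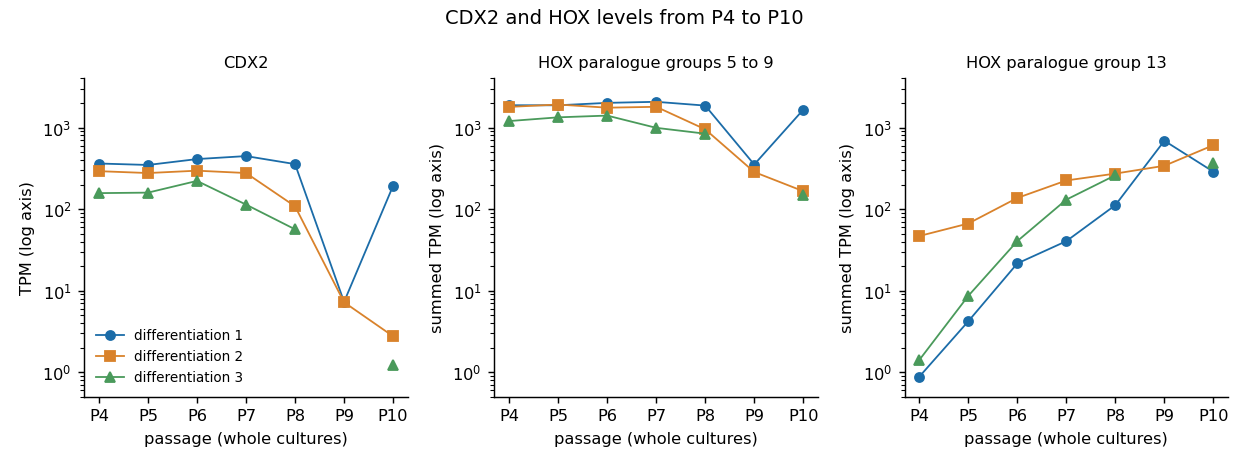
*CDX2*, the sum of 15 trunk HOX genes and the sum of the 4 HOX genes of group 13 from P4 to P10, in TPM on a log scale, with 1 line for each differentiation that breaks where P9 of differentiation 3 was not analysed. *CDX2* and the trunk sum fall at P9 in differentiations 1 and 2 and stand at 193 and 1655 TPM at P10 of differentiation 1, while the group 13 sum is higher at P9 than at P8.

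The fractions asked in which cells *CDX2* was held. At P5 the EPI fractions had 445, 329 and 257 TPM of *CDX2* and the MES fractions 155, 147 and 49.2 TPM. Every MES library was below every EPI library, by 2.87-, 2.24- and 5.22-fold within a differentiation. The whole cultures lay between, with EPI 1.28-, 1.19- and 1.61-fold above and MES 2.24-, 1.88- and 3.24-fold below them. At P8 the EPI fractions had 327, 122 and 74.6 TPM and the MES fractions 243, 83.9 and 18.6 TPM. Here the groups overlapped, although MES was again the lower one in each differentiation, by 1.35-, 1.45- and 4.02-fold. The P8 whole culture of differentiation 1 (356 TPM) lay above both of its fractions. Those of differentiations 2 and 3 (108 and 56.5 TPM) lay between theirs.

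The fitted log2 difference of MES from EPI for *CDX2* was -1.74 ± 0.50 (SE, adjusted p = 0.0688) at P5 and -0.88 ± 0.49 (adjusted p = 0.508) at P8, with the differentiation as a block, so neither passed. No gene passed either comparison by edgeR (0% of 18885 genes tested), although 4894 genes at P5 and 2261 at P8 had an unadjusted p below 0.05, and DESeq2 called 674 and 55 genes. *CDX2* was among the calls of DESeq2 at P5 (log2 difference -1.75, adjusted p = 0.00179). The 2 differences were not shown to differ from each other, since their own difference was 0.86 ± 0.68 on the log2 scale (adjusted p = 0.874). No gene passed that test of the difference (0%, with 1152 genes at an unadjusted p below 0.05 and 1 called by DESeq2). *CDX2* was therefore present in both fractions at both passages, at no less than 18.6 TPM.

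*CDX1* did not separate the fractions. At P5 it stood at 1.39, 0.78 and 0.53 TPM in EPI and 2.63, 0.74 and 0.79 TPM in MES, and at P8 at 0.27, 0.32 and 0.32 TPM in EPI and 0.66, 0.18 and 0.45 TPM in MES. The log2 differences of MES from EPI were 0.51 (adjusted p = 0.459) at P5 and 0.33 (adjusted p = 0.813) at P8. The means of 36.8 and 12.0 normalized counts were too low for *CDX1* to pass in either. Between P5 and P8, *CDX2* changed by -1.30 on the log2 scale in EPI (adjusted p = 0.115) and by -0.44 in MES (adjusted p = 0.589), and neither passed, while 0.0318% and 0.116% of all genes passed as lower. *CDX1* changed by -1.40 in EPI (adjusted p = 0.0671) and -1.58 in MES (adjusted p = 0.0465), and *CDX4* by -2.40 in EPI (adjusted p = 0.0317) and -0.66 in MES (adjusted p = 0.462). None of these changes of *CDX1* and *CDX4* could pass, since their means were between 3.93 and 29.1 normalized counts, below the 100 needed.

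**Figure D4:**
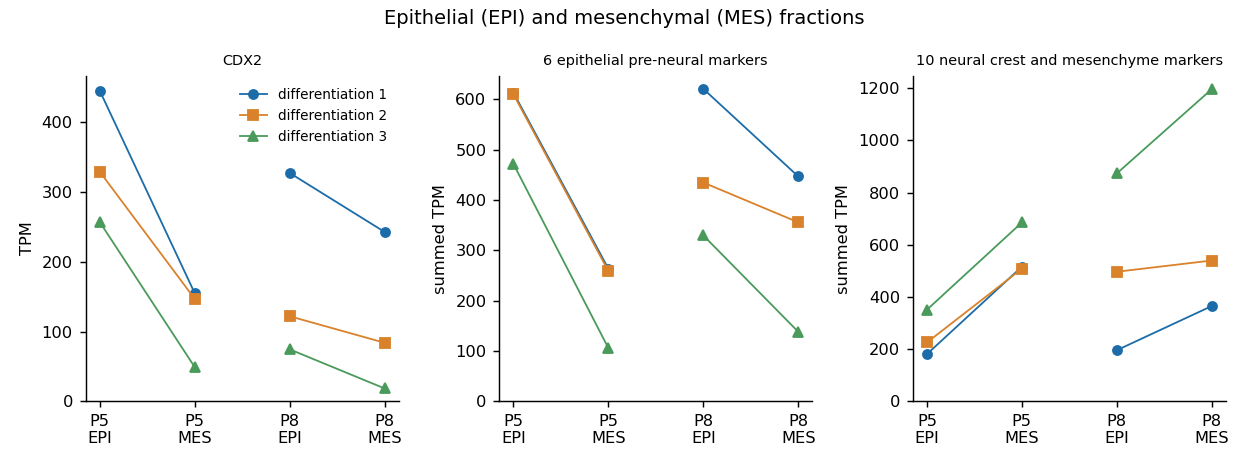
*CDX2* in TPM, and the summed TPM of 6 epithelial and of 10 neural crest and mesenchyme markers, in EPI and MES fractions at P5 and P8; each point is 1 library and lines join the fractions of 1 differentiation. *CDX2* is lower in MES than in EPI in each of the 3 differentiations at both passages, by 1.35- to 5.22-fold, as is the epithelial sum, while the mesenchymal sum is higher in MES.

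Sums of the markers of these fractions were compared with *CDX2*. By gene, no marker of either list passed in edgeR at P5 or P8, where 0% of all 18885 genes tested did. The epithelial sum at P5 was 613, 610 and 472 TPM in EPI and 264, 259 and 106 TPM in MES, and the mesenchymal sum was 181, 226 and 351 TPM in EPI and 516, 508 and 686 TPM in MES. Both sums differed in the labelled direction in each differentiation at P5, with all 6 epithelial markers below 0 and 9 of 10 mesenchymal markers above 0 in the fit of MES against EPI, and neither fraction lacked the markers of the other. At P8 the epithelial sum was 621, 434 and 330 TPM in EPI and 447, 356 and 138 TPM in MES, and the mesenchymal sum was 196, 497 and 873 TPM in EPI and 365, 540 and 1196 TPM in MES. The mesenchymal sums of differentiation 2 were thus close to each other, and 7 of the 10 mesenchymal markers were above 0. Differentiation 3, where *CDX2* differed most between the fractions, had the highest mesenchymal sum in each of the 4 fraction groups.

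The signals known to control the *CDX* genes were followed through lists of pathway genes. Of 13 WNT pathway genes, 10 passed as higher at 36h, where 1.33% of all genes did, and none as lower, with a median log2 change of 4.28 against 0.0036 over all genes tested. They included the ligands *WNT8A* (10.31) and *WNT5B* (6.89), the nuclear effector *LEF1* (7.02) and the WNT target *SP5* (8.17). Of 10 FGF pathway genes, the ligands *FGF17* (9.18) and *FGF8* (6.14) passed as higher, while 5 of the list were above and 5 below 0 at a median of 0.003. Of 9 genes of retinoic acid signalling, *CRABP2*, which encodes a retinoic acid binding protein, passed as higher (2.57), with 5 above and 4 below 0 at a median of 0.20.

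Between 36h and P5 members of these lists went in both directions. The ligands *WNT3A* (-10.35), *WNT8A* (-8.53) and *WNT5B* (-3.81) and the transcription factor *SP8* (-2.86) passed as lower, as did 4.54% of all genes, while the feedback inhibitor *AXIN2* passed as higher (1.66), as did 3.78%. *FGF4*, a ligand, passed as lower (-7.71), and *DUSP6* (1.48) and *SPRY2* (1.47), which encode feedback inhibitors of FGF signalling, passed as higher. The median of the WNT list was 0.18 and that of the FGF list -0.04, against -0.01 over all genes. In the retinoic acid list the receptor gene *RARG* passed as higher (1.34), with 6 of 9 below 0 at a median of -0.42. Among 11 genes of caudal progenitors, 5 had passed as higher at 36h (1.33% of all genes), namely *MSGN1* (14.22), *EVX1* (12.43), *TBXT* (11.27), *MIXL1* (9.56) and *GBX2* (5.28). *MSGN1* (-7.58), *TBXT* (-6.75) and *MIXL1* (-6.53) passed as lower at P5 (4.54% of all genes) together with *TBX6* (-6.56), and of these *TBXT* is the gene of brachyury and *MSGN1* and *TBX6* are factors of the presomitic mesoderm. *CDX1* thus fell in the same comparison as 4 of 11 genes of this list.

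CDX factors are known to activate *HOX* genes. Those of the trunk and group 13 lists were mostly still low when *CDX1* and *CDX2* had risen. This does not hold for all *HOX* genes. *HOXB1* and *HOXB4*, which are in neither list and were found by likeness to *CDX* genes, passed as higher at 36h (10.41 and 8.54). Mean *HOXB1* was 0.06 TPM at t0 and 61.5 TPM at 36h (5.6 to 163 TPM). At 36h, 1 of 15 trunk *HOX* genes had passed as higher, *HOXB8* (6.22), where 1.33% of all genes did. The median of the list was 2.74 with 13 of 15 above 0, and members such as *HOXB5* (6.44, adjusted p = 0.0057) did not pass only because their mean was below 100 normalized counts. From 36h to P5, 13 of 15 passed as higher and none as lower, beside 3.78% of all genes, at a median of 7.57, with *HOXC9* (11.81), *HOXC8* (9.66) and *HOXD9* (9.66) among them. By library, the sum of the trunk list was 2.92, 4.31 and 59.4 TPM at 36h and 156, 623 and 786 TPM at P1. Differentiation 3 was thus highest in this sum at 36h, as it was in *CDX1* and *CDX2*. Of the 4 genes of group 13, none had passed at 36h, and *HOXD13* (6.73) and *HOXC13* (6.58) were among the 2 that passed as higher at P5. From P5 to P8 no gene of any of these lists passed, in a comparison in which 0.0092% of all genes did. All 4 genes of group 13 were above 0 there, with a median of 3.99 against 0.0035 over all genes. Of the 15 trunk *HOX* genes 2 were above 0 and 13 below, with a median of -0.405. For P9 and P10 against P8 the WNT inhibitor *NOTUM* (4.63) and *EVX2* (4.08) passed as higher, as did 0.772% of all genes, and *SALL4* (-3.11) and *GBX2* (-2.54) as lower, as did 0.474%, and no *HOX* gene of either list passed. The fitted change was below 0 for all 15 trunk *HOX* genes, with a median of -1.36 against -0.01 over all genes, and *HOXC8* had the lowest value (-2.82, adjusted p = 0.019). Without the P10 library of differentiation 1, 8 of the 15 trunk *HOX* genes passed as lower, where 2.39% of all genes did, with a median of -2.62 and with *HOXC8* at -4.60 (adjusted p = 9.9e-07). None of the 4 genes of group 13 passed. In that comparison *NOTUM* (4.86) and *EVX2* (4.08) still passed as higher, where 2.25% of all genes did, and *SALL4* (-4.26) and *GBX2* (-2.89) as lower. So did *SP8* (-3.35) and *SOX2* (-6.30) as lower, and *ETV5* (1.44) of the FGF list and *RARB* (3.29), a retinoic acid receptor gene, as higher.

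The gene next to *CDX2* followed it closely. *URAD*, which encodes an enzyme of urate breakdown, lies 6575 bases from *CDX2* on the same strand, on its upstream side. It had 0.05, 0.04 and 0 TPM at t0, 0.41, 4.09 and 25.0 TPM at 36h and 81.3, 84.6 and 40.8 TPM at P6. At P9 it was down to 0.94 and 0.47 TPM, and at P10 the 3 differentiations held 46.8, 0.16 and 0 TPM, so the high P10 library of differentiation 1 was high in *URAD* as well. In the 36 libraries of P1 to P8 and of the fractions, *URAD* stood at 6.64% to 30.6% of the TPM of *CDX2*, with a median of 20.7%. Counts per gene do not show whether reads came from separate transcripts or from a transcript that joins the neighbours.

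*URAD* passed as higher at 36h (log2 change 8.94 ± 1.99, SE, adjusted p = 0.0042). Its fall from P8 to P9 and P10 (-3.96, adjusted p = 0.025) and its lower level in MES at P5 (-1.69, adjusted p = 0.046) did not pass. Without the P10 library of differentiation 1 that fall was -7.21 ± 1.00 and passed (adjusted p = 2.2e-05). *PDX1*, a homeobox gene of pancreas and duodenum that lies 35906 bases from *CDX2* on the other side, reached 9.13 TPM at most. In the same 36 libraries it stood at no more than 3.17% of the TPM of *CDX2*. It passed as higher from 36h to P5 (8.97 ± 1.91, adjusted p = 0.0009), at a mean of 4.47 TPM.

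**Figure D5:**
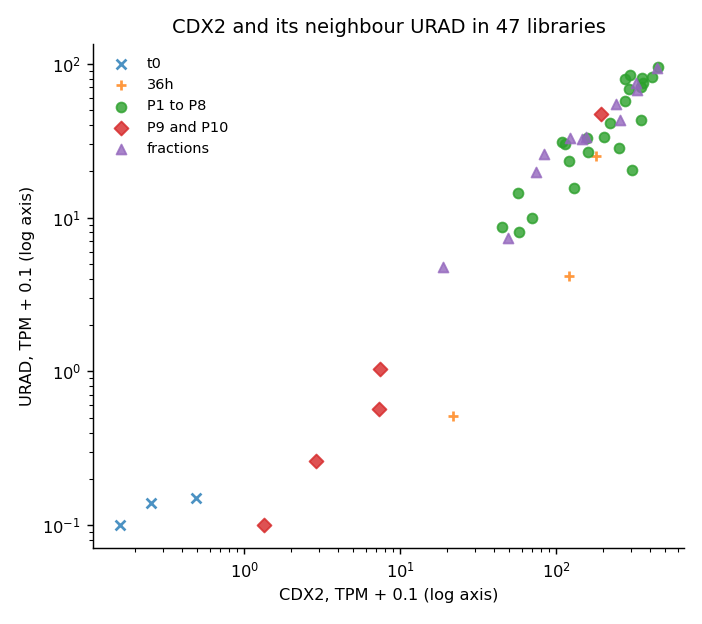
*URAD* against *CDX2*, both in TPM + 0.1 on log axes, 1 point for each of the 47 libraries, with marker and colour by group. The points run together over the whole range of *CDX2*, and the P9 and P10 libraries with *CDX2* below 8 TPM have *URAD* below 1 TPM.

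The genes whose pattern was most like that of each *CDX* gene were found by Pearson's correlation of log2 normalized values over the 35 whole-culture libraries, among 12398 genes for *CDX1* and *CDX2*. For *CDX1* they included *HES7* (r = 0.93), *MIXL1* (0.93), *WNT8A* (0.91) and *HOXB1* (0.88). For *CDX2* they were *URAD* (0.96), *CDH2* (0.91), *SLIT2* (0.91), *TAGLN3* (0.90) and *HOXB4* (0.90), where *CDH2* is N-cadherin and *SLIT2* a secreted guidance factor. These libraries are successive passages of 3 cultures, and the coefficients describe them and carry no test. Between the members, r was 0.39 for *CDX1* and *CDX2*, 0.51 for *CDX1* and *CDX4* and 0.08 for *CDX2* and *CDX4*.

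How far the lists of like genes held depended on the measure. *HES7* stayed the gene most like *CDX1*, and *URAD* the gene most like *CDX2*, with Spearman's correlation and with all 47 libraries. Of the 5 genes, 3 stayed among the first 5 for *CDX1* with Spearman's correlation, and 1 for *CDX2*. The genes most like *CDX4*, led by *TNFRSF11A* (0.90), rest on a gene with 3 counts or fewer in 17 of the 47 libraries.

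Paraxial mesoderm markers were high in several libraries with *CDX1*. The sum of 7 such genes was 15.9, 178 and 858 TPM at 36h, 24.4, 489 and 537 TPM at P1, 476, 110 and 102 TPM at P2 and 414, 28.0 and 43.0 TPM at P3. Differentiation 1 reached its high values at P2 and P3, where differentiations 2 and 3 had already dropped. The sum did not track *CDX1* throughout, since in differentiation 1 *CDX1* stood at 50.2 TPM at 36h and 33.1 TPM at P3. By gene, 2 of the 7, *HES7* (7.42) and *MSGN1* (14.22), passed as higher at 36h, where 1.33% of all genes did, and 4 of the 7 passed as lower at P5, where 4.54% did. The part of cells of this type in the level of *CDX1* was not tested.

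Markers of the other tissues in which *CDX* genes are known were followed as well. The sum of 12 genes of the intestinal epithelium lay between 0.20 and 8.86 TPM in all 47 libraries. The sum of 10 trophectoderm genes lay between 1.13 and 101 TPM, with *TFAP2C*, a transcription factor that neural crest also expresses, at 71.8 ± 22.1 TPM at P8 (SD, n = 3) and 60.1 ± 37.3 TPM at P9 (n = 2). At P8, 6 of the 10 were at 0 in every library and 2 were above 3 counts in every library. At P9, 4 were at 0 and 5 above 3 counts, and the sum was 39.5 and 101 TPM. *ELF5* was at no more than 0.01 TPM and *VGLL1* at 0 in every library. Of the 6 that could be tested for P9 and P10 against P8, 3 were above 0 and 3 below, with a median of 2.87 against -0.01 over all genes. None passed, beside 0.772% of all genes as higher and 0.474% as lower. Without the P10 library of differentiation 1, *GATA2* passed as higher (6.09), as did 2.25% of all genes. The part of these cell types in the level of *CDX2* was not tested.

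The promoters were searched for short motifs in the 250 bases before the gene start in the RefSeq annotation of GRCh38.p14, in which windows for *CDX2* and *CDX4* were matched. On both strands, the letters TTTATNG, a motif of CDX factors, matched 1 time in the *CDX2* window, at 181 to 175 bases before the start on the minus strand, and not in that of *CDX4*. They match in 9.31% of 27303 promoters of the same length. CTTTGAT, the motif of TCF and LEF factors, matches in 2.35% of all promoters, AGGTCA, the half-site of nuclear receptors, in 12.4% and GGGNGGGG in 34.8%, and none of these was found in either window. A match describes the letters alone, and the *CDX2* start in that annotation lies inside the longer gene model of GENCODE 29.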

How the data were processed

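WA09 cells were sampled as 47 RNA libraries, sequenced as 75-base single-end reads of poly(A) RNA. The authors deposited 1 RSEM gene table per library, which holds estimated counts and TPM, and the submitters' processing notes name cutadapt 1.16, STAR 2.5.2b, RSEM 1.3.0 and GRCh38. The annotation release and the strand setting are not given in the sources used here. TPM in the deposited tables divides by an effective transcript length that differs between libraries.

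Symbols were taken from GENCODE 29, which matched 57447 of 58051 identifiers. Estimated counts were rounded and tested with edgeR 4.0.16 in R 4.3.3 (filterByExpr, TMM, quasi-likelihood F-test, the differentiation as a block, Benjamini-Hochberg adjustment over all genes tested), 1 fit for the 35 whole cultures and 1 for the 12 fractions. The criteria for passing are given with the results. The SE of a log2 change in edgeR was taken as its absolute value divided by the square root of its F statistic. The depth limits low genes, so counts are given beside some of the levels that rest on few of them. As the limit of a count of 0, 3 counts were taken. The study's design text states that the groups of a number come from the same experiment. Deviations from group means correlated by 0.653 and 0.780 within EPI and MES pairs of the same number at P5 and P8, by 0.311 between P5 and P8, and by -0.008 between t0 and 36h (mean over 3 pairs, 13297 genes). P-values rest on the spread between 3 differentiations of 1 line that is left once the block has removed their mean difference. That spread is pooled over all groups of a fit. The fits treat successive passages of the same cultures as independent, which they are not.

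The *CDX* genes were named by family. Other genes named are those of the pathway, HOX and marker lists, the genes next to the *CDX* genes on each side and the 5 genes most like each *CDX* gene by correlation of log2 CPM (prior count 2). The members and lists were chosen with earlier results of these data known. The scripts were tested on simulated counts. Alternatives were DESeq2 1.42.0, other scalings and filters, no block, other sets of libraries in a fit and leaving out each differentiation. The P10 library of differentiation 1 was left out in a further alternative, chosen with earlier results known. Leaving out its P9 library was added after the data had been seen, as was the length of the longest coding transcript.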

Additional observations from a re-analysis of the deposited data

How the results depend on the processing

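The rise of *CDX1* at 36h and its fall to P5 passed under every alternative that tested it. The rise of *CDX2* at 36h did not pass with only the compared groups in the fit (log2 change 8.62), and with a differentiation left out it ranged from 8.15 to 9.99. For P9 and P10 against P8, *CDX2* passed with DESeq2 (-3.32), with all 47 libraries in the fit (-3.33), at an adjusted p below 0.05 (-3.31) and without the P10 library of differentiation 1 (-5.31), did not without the P9 library of that differentiation (-3.07), and with a differentiation left out its change ranged from -4.76 to -3.15 and passed without differentiation 1. *CDX2* in MES against EPI at P5 passed with DESeq2 (-1.75). *CDX1* for P9 and P10 against P8 changed sign with only the compared groups (-0.031) and ranged from -0.53 to 0.97 with a differentiation left out. *CDX4* at 36h changed sign likewise (-0.050), with a range from -0.75 to 0.71. *CDX2* at P1 against 36h (-0.29) changed sign without the block (0.60) and with only the compared groups (0.50), and ranged from -1.03 to 1.21. In TPM, its P1 level stood at 14.0-, 1.07- and 0.25-fold of 36h in differentiations 1 to 3. A fixed difference between differentiations, as the block takes it, cannot describe these ratios. The cause was not tested in any of these. A minimum of 10 counts in every library removed the *CDX* genes from the whole-culture fit. With the length of the longest coding transcript, the *CDX2* share was 27.5% at 36h, 45.4% at P1, 59.0% at P2, 85.9% at P3 and 99.1% at P5, by construction of that length.

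Without the replicate block, no call of a *CDX* gene changed, and *CDX2* for P9 and P10 against P8 was -3.02 (adjusted p = 0.076). The number of genes that passed was less stable. For P9 and P10 against P8 it was 271, 37 without the block, 740 with DESeq2, 508 with all 47 libraries, 0 with only the compared groups, 786 at an adjusted p below 0.05, 928 without differentiation 1, 0 without differentiation 2 or 3, 1007 without the P10 library of differentiation 1 and 137 without its P9 library. At 36h it was 589, with 964 at an adjusted p below 0.05, 168 with only the compared groups, and 891, 83 and 92 without differentiations 1 to 3. For P5 against 36h it was 1811, with 2948 without a minimum mean, and 773 and 971 without differentiations 2 and 3. For P8 against P5 it was 2, with 155 by DESeq2, 39 at an adjusted p below 0.05 and 0 to 100 with a differentiation left out. For MES against EPI at P5 it was 0, with 674 by DESeq2, 503 at an adjusted p below 0.05, 82 without the filter on low counts and 13 with all 47 libraries. Depth limits *CDX4* and *CDX1* after P3, where differences of a few counts could not be detected.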
